A study of Mus musculus with 4 samples.

Results

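The Rab genes encode small GTPases that direct vesicle traffic, and 58 of them were read by 83 probes on arrays that carried 30195 genes. They were taken by name, as every gene whose symbol is Rab followed by a number and at most a letter and a digit, a rule that uses no measured value. By their known routes 22 were placed with endocytosis, 26 with secretion and 10 with other or less studied roles. Signal was bright enough to test 50 of the 58.

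A Rab protein switches between a GDP-bound form and a GTP-bound form, which sits on a membrane and recruits effectors such as tethers and motors. Exchange factors load GTP, GTPase-activating proteins end the cycle, and escort proteins and GDP-dissociation inhibitors carry the lipid-tailed Rabs through the cytosol. In endothelium, endocytic Rabs handle ligands taken up from blood, a main task of sinusoidal endothelium, and secretory Rabs serve the Weibel-Palade body, the granule that stores von Willebrand factor. Rab27a, Rab3 proteins, Rab15 and Rab37 have been found on that granule in human endothelial cells.

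The cells compared were ACKR4-positive and ACKR4-negative, all of them CD31-bearing, CD45-negative spleen cells of mice whose age the labels do not give. Both groups came from the same kind of animal, Ackr4GFP/wt, in which 1 Ackr4 allele carries green fluorescent protein, so ACKR4-positive means reporter-positive and no wild-type animals were included. Spleens were digested, CD45-bearing cells were depleted, and each of 2 sorts pooled cells from 2 to 3 mice, giving 2 arrays per group. The labels number the replicates but tie no array to a sort. Sort 1 and sort 2 below are therefore the replicate numbers, read as sorts. The comparison asks how RNA levels differ between the reporter-positive and reporter-negative cells, and its p-values measure the spread between 2 pooled sorts.

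Levels below are log2 signal relative to the array's 75th percentile, so 0 is that percentile, and they are set against each other only within 1 probe. ACKR4-positive arrays had 22976 and 21663 probes well above background, against 21972 and 22365 on ACKR4-negative arrays, with 75th percentiles of 950 and 589 against 767 and 656 signal units. Spiked-in control RNA had a median signal of 837 on the ACKR4-negative array of sort 1 and 2749 to 3489 on the other arrays. Pan-endothelial markers were well above background on every array, 12 of 12 genes, with sums of 526 and 668 in ACKR4-positive cells against 759 and 781 in ACKR4-negative cells, in units of the 75th percentile. Of these 12 genes 3 fell, against 3.71% of all tested genes. They were Emcn, Kdr and Esam, with log2 fold changes of -5.24, -2.71 and -1.92. With the sort block Robo4 also fell and Tek rose, and Pecam1, which encodes CD31, was not called, at -0.15.

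The 250 bases before the start of 4 Rab genes are printed because Rab39 and Rab3b were called lower in ACKR4-positive cells and Rab40b and Rab9b had the highest log2 fold changes, 2.14 and 1.57. Capitals mark matches, on either strand, to any of 4 motifs. The GC box, known for binding Sp factors, was searched for with the letters GGGCGG. The CCAAT box was searched for by the letters of its name. For the TATA box the letters sought were TATAAA. For the E-box, which basic helix-loop-helix factors bind, they were CACGTG. Sequences are those of RefSeq on GRCm38.p6, and lie at chr9:53706233-53706482 on the minus strand for Rab39, chr4:108878820-108879069 on the plus strand for Rab3b, chr11:121388252-121388501 on the minus strand for Rab40b and chrX:136868557-136868806 on the minus strand for Rab9b.
Rab39: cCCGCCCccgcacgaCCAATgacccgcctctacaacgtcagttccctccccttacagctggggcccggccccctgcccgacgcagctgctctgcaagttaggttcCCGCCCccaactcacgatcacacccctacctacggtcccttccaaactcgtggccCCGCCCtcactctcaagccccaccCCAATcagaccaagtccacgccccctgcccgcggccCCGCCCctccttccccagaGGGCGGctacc
Rab3b: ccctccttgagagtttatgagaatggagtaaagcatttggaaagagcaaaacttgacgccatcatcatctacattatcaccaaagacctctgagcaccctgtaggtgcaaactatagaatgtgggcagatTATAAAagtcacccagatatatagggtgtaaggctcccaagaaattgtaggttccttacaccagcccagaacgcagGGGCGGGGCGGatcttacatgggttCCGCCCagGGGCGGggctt
Rab40b: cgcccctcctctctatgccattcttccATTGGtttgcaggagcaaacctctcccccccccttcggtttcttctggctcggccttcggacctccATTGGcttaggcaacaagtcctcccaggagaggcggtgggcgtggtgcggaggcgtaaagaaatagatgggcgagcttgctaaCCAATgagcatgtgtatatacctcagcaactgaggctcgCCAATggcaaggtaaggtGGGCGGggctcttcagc
Rab9b: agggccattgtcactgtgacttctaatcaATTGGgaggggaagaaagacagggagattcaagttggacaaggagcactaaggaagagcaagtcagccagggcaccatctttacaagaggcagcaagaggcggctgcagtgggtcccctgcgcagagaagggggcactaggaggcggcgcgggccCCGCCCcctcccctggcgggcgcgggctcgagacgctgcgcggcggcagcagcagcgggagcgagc
The Rab39 window held 5 GC boxes and 2 CCAAT boxes in 68.8% G and C. The Rab3b window held 4 GC boxes, some of them overlapping, and a TATA box in 48.8% G and C. The windows of Rab40b and Rab9b held 1 GC box each, with 4 CCAAT boxes in Rab40b and 1 in Rab9b. A promoter was matched for 48 of the 58 Rab genes. Of these, 68.8% held a GC box and 45.8% a CCAAT box, against 32.9% and 34.5% of all 27025 promoters. TATA boxes were in 8.3% of Rab promoters and 13% of all, and E-boxes in 8.3% and 6.0%. Median G and C content was 60.6% in Rab promoters and 52.0% in all. These matches describe letters and were not tied to any difference between the cells.

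Most Rab genes differed little in level between the groups, and the few calls depended on whether the sort was modelled. Of 50 tested Rab genes 0 rose and 3 fell at an adjusted p under 0.05 (limma, Benjamini-Hochberg over 17362 genes). The 3 were Rab27b, Rab39 and Rab3b, all placed with secretion, although Rab39 is also linked to late endosomal traffic. The called share was 6% of Rab genes against 5.62% of all tested genes, of which 1.91% rose and 3.71% fell, so the count lies near the background. With the sort as a replicate block 5 rose and 7 fell, 24% of Rab genes against 15.3% of all (6.75% rose and 8.55% fell). The 2 groups did not overlap for 23 Rab genes, 46% against 44.9% of all genes, with 13 higher and 10 lower in ACKR4-positive cells. The log2 fold change was under 0.5 in size for 29 of 50, or 58%, against 62.3% of all genes, and the median was 0.07 against 0.04. Within both sorts 23 Rab genes were higher and 15 lower in ACKR4-positive cells, against 38.6% and 34.5% of all genes (73.1% for both directions). A difference of 2-fold or more in both sorts was seen in 2 Rab genes upward and 6 downward, against 5.13% and 7.43% of all genes.

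**Figure D1:**
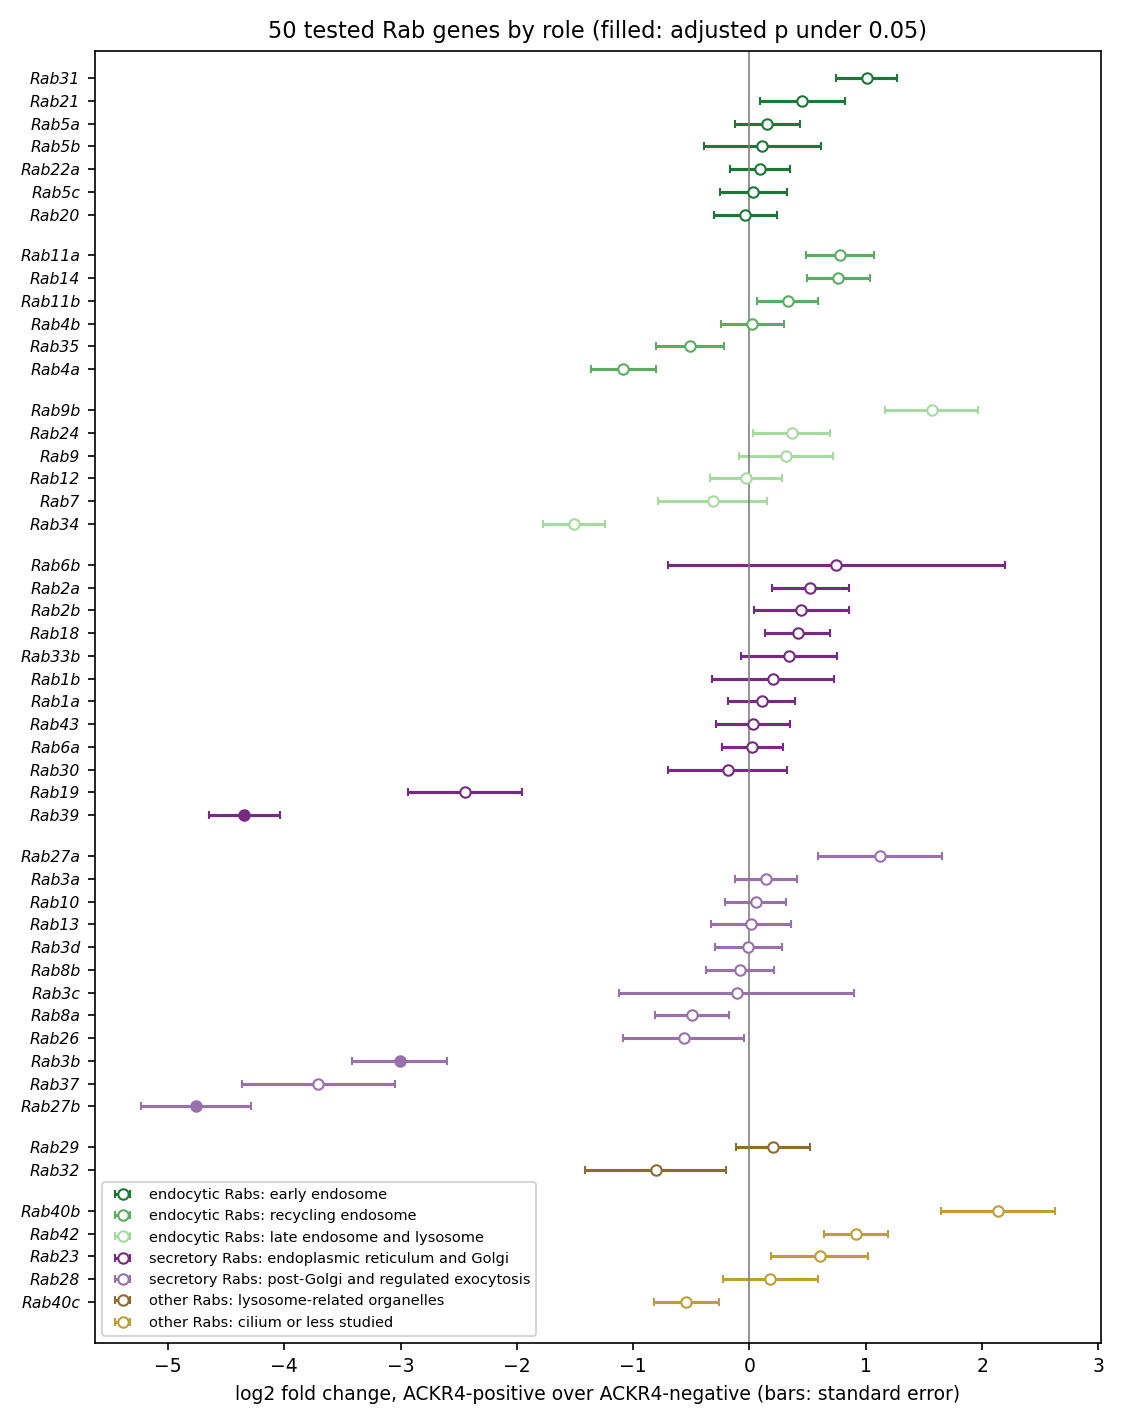
Log2 fold change, ACKR4-positive over ACKR4-negative, of the 50 tested Rab genes (x axis), grouped by role down the page, with bars for the standard error of the fit (2 arrays per group). Filled points mark the 3 called genes, Rab39, Rab3b and Rab27b, which lie at -4.34, -3.01 and -4.76 among the secretory Rabs, while most points lie within 1 of 0.

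Among Rabs of regulated exocytosis, 2 of 12 fell and 0 rose, against 3.71% and 1.91% of all tested genes. Of the 2, Rab27b passed the filter through ACKR4-negative cells only. Rab27b docks secretory granules at the plasma membrane and in mice serves dense-granule release from platelets. Its level was -5.27 and -5.74 in ACKR4-positive cells of sorts 1 and 2, against -1.30 and -0.20 in ACKR4-negative cells (probe at chr18:70138799-70138858, mm9). The groups lay far apart in both sorts, and both ACKR4-positive arrays were not well above background. This gave a log2 fold change of -4.76 ± 0.47 (SE, n = 2 arrays per group, limma adjusted p = 0.0154). A floored fold raises any dim value below its array's lowest signal well above background to that signal. Rab27b was 23.3-fold lower when floored, with only the ACKR4-positive array of sort 2 raised. A floored fold is not a strict lower bound. A second probe gave -7.83, the same direction.

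Rab3b, which acts in regulated secretion in neurons and endocrine cells, was well above background on all 4 arrays. Its level was -5.20 and -4.77 in ACKR4-positive cells, against -1.56 and -2.40 in ACKR4-negative cells (chr4:108613734-108613793, mm9). With no overlap between groups, the log2 fold change was -3.01 ± 0.41 (limma adjusted p = 0.0292). The call was lost without either ACKR4-positive array or without the ACKR4-negative array of sort 1 (adjusted p = 0.0887, 0.0513 and 0.0955). It was also lost with normexp background correction, at -1.55 (adjusted p = 0.0896).

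Rab37, an exocytic Rab of mast cells and Weibel-Palade bodies, had levels of -5.75 and -5.20 in ACKR4-positive cells, against -2.64 and -0.90 in ACKR4-negative cells. The groups did not overlap, although the ACKR4-negative arrays differed from each other by 1.74. Its log2 fold change of -3.71 ± 0.66 missed the threshold (limma adjusted p = 0.0560) and passed it with the sort block (adjusted p = 0.00257). Neither ACKR4-positive array was well above background, and a second probe gave -3.52. The log2 fold change was -1.90 with normexp background correction (limma adjusted p = 0.153). Without the ACKR4-negative array of sort 1 it was -4.58, and without that of sort 2 it was -2.83.

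Rab27a, the paralog of Rab27b that drives granule docking in many cells, went the other way. Its level was -3.78 and -2.66 in ACKR4-positive cells, against -4.76 and -3.92 in ACKR4-negative cells. The ACKR4-positive array was higher within each sort, and the groups also did not overlap. Its log2 fold change of 1.12 ± 0.53 was not called (limma adjusted p = 0.438) and was called with the sort block (adjusted p = 0.0292). The difference between the paralogs was not tested. Of the Rab3 paralogs, Rab3a and Rab3d had log2 fold changes of 0.15 and -0.01, with intervals (95%) of -0.56 to 0.85 and -0.78 to 0.76.

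Rab10, a Rab of exocytosis from the Golgi, had 2.61 and 2.65 in ACKR4-positive cells against 2.58 and 2.57 in ACKR4-negative cells. That is a log2 fold change of 0.05 with an interval of -0.64 to 0.74, and its second probe gave -0.57. The other members of this group, Rab3c, Rab8a, Rab8b, Rab13 and Rab26, lay between -0.57 and 0.01 and were not called.

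**Figure D2:**
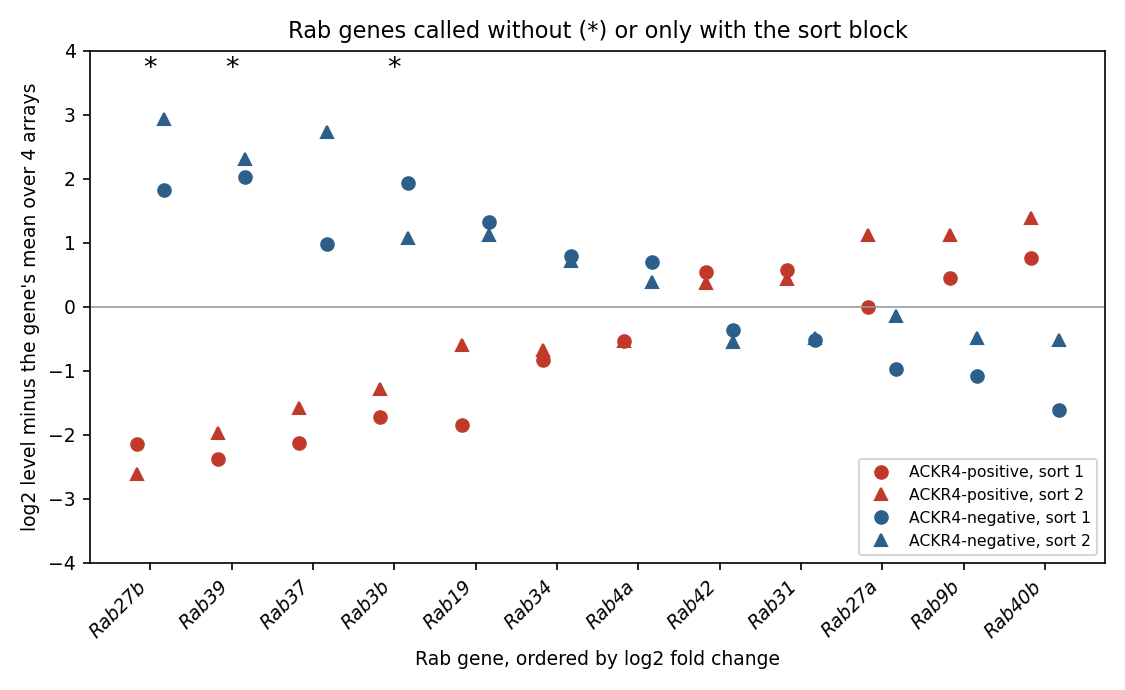
Level of each of 12 Rab genes on each array, as log2 signal minus the gene's mean over the 4 arrays (y axis), ordered by log2 fold change (x axis). Red marks ACKR4-positive and blue ACKR4-negative cells, circles sort 1 and triangles sort 2, and asterisks mark the 3 genes called without the sort block. The 12 are drawn because either fit called them. Their red and blue points do not overlap, which 44.9% of all tested genes also showed.

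Of 12 tested Rabs of the endoplasmic reticulum and Golgi, 1 fell and 0 rose, against 3.71% and 1.91% of all tested genes. Rab39, linked to Golgi and late endosomal traffic, had levels of -7.73 and -7.33 in ACKR4-positive cells, against -3.33 and -3.05 in ACKR4-negative cells (chr9:53492468-53492527, mm9). Both ACKR4-positive arrays were not well above background, and the groups did not overlap. Rab39 thus had a log2 fold change of -4.34 ± 0.31 (limma adjusted p = 0.00974), or 5.59-fold lower when floored. With normexp background correction it was -1.23 and not called (adjusted p = 0.131). With 1 array left out, the log2 fold change ran from -5.31 to -4.21 for Rab27b and from -4.54 to -4.14 for Rab39.

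Rab19, a Golgi Rab, had levels of -4.23 and -3.00 in ACKR4-positive cells, against -1.06 and -1.27 in ACKR4-negative cells. Each ACKR4-positive value lay below both others, and the log2 fold change of -2.45 ± 0.49 missed the threshold (limma adjusted p = 0.0766) and passed it with the sort block (adjusted p = 0.0148). Without the ACKR4-positive array of sort 2 it was -3.07, and without that of sort 1 it was -1.83.

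Rab1a and Rab18 were not called. Rab1a, which acts between the endoplasmic reticulum and the Golgi, had 4.51 and 4.86 in ACKR4-positive cells, against 4.53 and 4.63 in ACKR4-negative cells. These ranges overlap, and the log2 fold change was 0.10 with an interval of -0.66 to 0.86. Rab18, known for lipid droplets and the endoplasmic reticulum, had 4.52 and 4.34 in ACKR4-positive cells against 4.14 and 3.89 in ACKR4-negative cells. Its groups did not overlap, and its log2 fold change of 0.42 was not called, with an interval of -0.32 to 1.15.

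Rab6b, a Golgi Rab, differed more between sorts than between groups. Its level was -1.30 and 0.93 in ACKR4-positive cells, against -2.76 and 0.90 in ACKR4-negative cells, so each group was higher in sort 2. The log2 fold change was 0.75 with an interval of -3.09 to 4.58. Rab30, Rab33b and Rab43, also of the Golgi, had log2 fold changes of -0.19, 0.34 and 0.03 by the brightest probe, against 1.11, -0.17 and -0.64 by the other.

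Of 19 tested endocytic Rabs 0 were called, against 5.62% of all tested genes. With the sort block 2 rose and 2 fell, against 6.75% and 8.55% of all tested genes. Rab34, which positions lysosomes and takes part in forming cilia, had levels of 0.32 and 0.46 in ACKR4-positive cells, against 1.94 and 1.86 in ACKR4-negative cells. The pairs were tight and did not overlap. A log2 fold change of -1.51 ± 0.27 missed the threshold (limma adjusted p = 0.0542) and passed it with the sort block (adjusted p = 0.0109), with normexp correction (0.0376), quantile normalization (0.0462) and a trended prior (0.0349).

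Rab4a, which returns cargo quickly from early endosomes to the surface, had 0.86 on both ACKR4-positive arrays, against 2.10 and 1.79 in ACKR4-negative cells. The groups did not overlap, and the log2 fold change of -1.09 ± 0.28 was called only with the sort block (limma adjusted p = 0.138 without and 0.0327 with it). Its second probe gave -1.10. The paralog Rab4b had a log2 fold change of 0.03, with an interval of -0.70 to 0.75.

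Rab31, which acts between the trans-Golgi and endosomes, was higher in ACKR4-positive cells, at 1.98 and 1.85, against 0.89 and 0.92 in ACKR4-negative cells. The groups did not overlap, and the log2 fold change of 1.01 ± 0.26 was called only with the sort block (limma adjusted p = 0.144 without and 0.0365 with it). Rab9b, a relative of the late-endosomal Rab9, had -4.39 and -3.70 in ACKR4-positive cells, against -5.91 and -5.31 in ACKR4-negative cells, where it was not well above background. The log2 fold change of 1.57 ± 0.40, or 2.64-fold when floored, was likewise called only with the block (limma adjusted p = 0.135 without and 0.00886 with it). Its interval was 0.51 to 2.62.

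The Rab5 genes and Rab12 were not called. Rab5c, a Rab of early endosomes, had 4.32 and 4.67 in ACKR4-positive cells, against 4.48 and 4.43 in ACKR4-negative cells. Its log2 fold change was 0.03, with an interval of -0.72 to 0.79. Rab5a and Rab5b gave 0.15 and 0.11 by the brightest probe, with other probes down to -0.11 and -0.25. Rab12, of lysosomal traffic, gave -0.03, with an interval of -0.85 to 0.79.

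Of 6 tested recycling Rabs 3 were higher (Rab11a, Rab11b and Rab14) and 2 lower (Rab4a and Rab35) in ACKR4-positive cells without overlap, which 44.9% of all genes also showed. None was called without the block, and Rab35, of fast recycling, was at -0.51 with an interval of -1.29 to 0.27. Rab14, which acts between the Golgi and endosomes, had 4.56 and 4.76 in ACKR4-positive cells against 3.84 and 3.95 in ACKR4-negative cells. Its log2 fold change was 0.76 ± 0.27 (limma adjusted p = 0.277). Rab11a had 3.24 and 3.64 in ACKR4-positive cells against 2.71 and 2.61 in ACKR4-negative cells, a log2 fold change of 0.78 ± 0.29 (adjusted p = 0.305). Rab11b gave 0.33, with an interval of -0.36 to 1.02.

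Endocytic Rabs had a median log2 fold change of 0.11 over 19 genes (0.14 in sort 1 and 0.16 in sort 2), and secretory Rabs of 0.02 over 24 (0.05 and 0.02). Both medians lie near the 0.04 of all tested genes. Secretory Rabs held all 3 called genes, counting Rab39, which is also linked to late endosomal traffic. Of the 3, Rab27b and Rab39 passed the filter through ACKR4-negative cells only. Secretory Rabs ranged from -4.76 to 1.12, while endocytic Rabs ranged from -1.51 to 1.57. The difference in called genes between these classes was not tested.

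**Figure D3:**
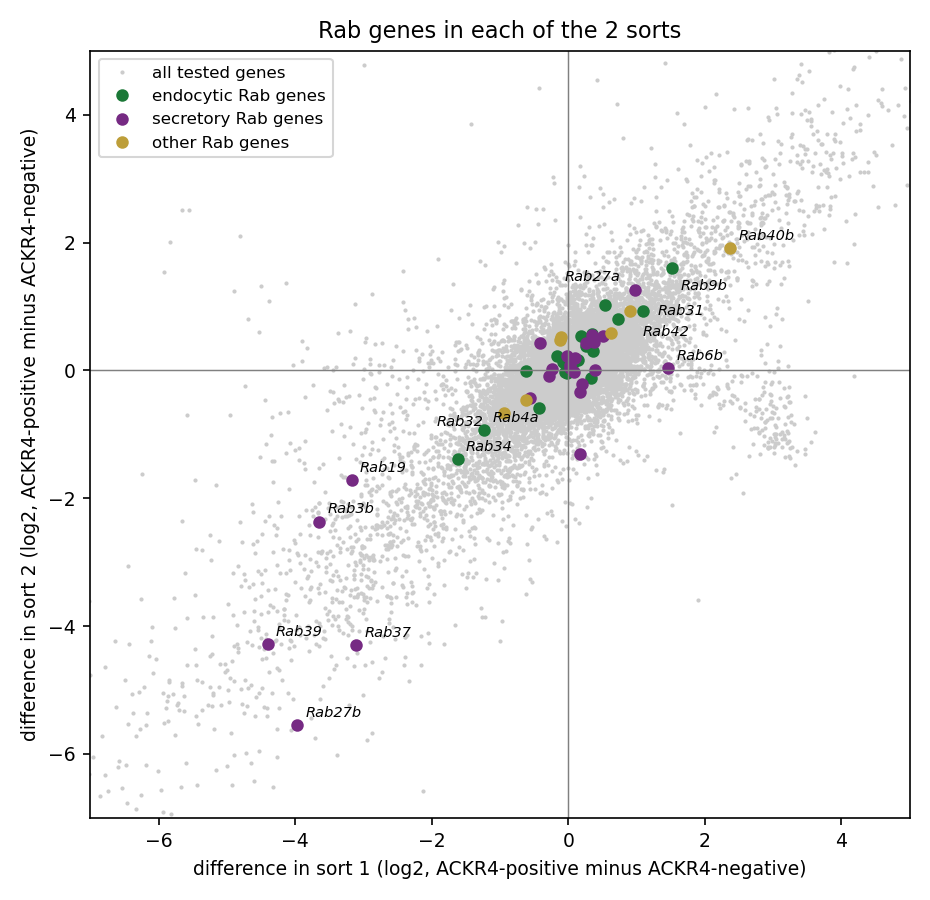
Log2 difference, ACKR4-positive minus ACKR4-negative, in sort 1 (x axis) and in sort 2 (y axis), with grey dots for all tested genes and coloured dots for Rab genes by class. The axes run from -7 to 5 and leave out 110 genes. Rab27b, Rab39, Rab37, Rab3b and Rab19 lie low in both sorts, and 23 Rab genes are higher and 15 lower in both.

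Of 7 tested Rabs with other roles 0 were called, and with the sort block 2 rose, against 6.75% of all tested genes. Rab40b, which carries a SOCS box and joins cullin ubiquitin ligases, had -2.48 and -1.85 in ACKR4-positive cells, against -4.84 and -3.76 in ACKR4-negative cells. The groups did not overlap. Its log2 fold change of 2.14 ± 0.49, the highest among the tested Rab genes, was called only with the block (limma adjusted p = 0.105 without and 0.00450 with it). Its paralog Rab40c gave -0.54, with an interval of -1.28 to 0.19.

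Rab42, a little-studied Rab, had -1.18 and -1.34 in ACKR4-positive cells, against -2.09 and -2.27 in ACKR4-negative cells. Both ACKR4-positive values lay above both others, and the log2 fold change of 0.92 ± 0.27 was called only with the block (limma adjusted p = 0.191 without and 0.0468 with it). Rab32, of lysosome-related organelles, gave -0.81 and Rab23, of cilia, 0.60, both not called, and the other probe of Rab23 gave -0.02.

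Too dim to test were Rab15, Rab17, Rab25, Rab33a, Rab36, Rab38, Rab39b and Rab44. Of the tested Rab genes, 5 passed the filter through 1 group only, namely Rab39, Rab27b, Rab37 and Rab26 through ACKR4-negative cells and Rab9b through ACKR4-positive cells. Among the 45 that were well above background in both groups, 1 fell, 2.22% against 2.15% of the 15697 such genes, and the median log2 fold change was 0.10 against 0.04. Of 18 Rab genes with several tested probes, 7 had probes that differed in sign.

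Exchange factors, which switch Rabs on, had calls in both directions. Of 36 tested exchange factors 3 rose and 3 fell, 16.7% against 5.62% of all genes. Among those that fell, Dennd3 and Rin3 passed the filter through ACKR4-negative cells only. With the sort block 4 rose and 3 fell, 19.4% against 15.3% of all genes. Dennd2d, a DENN-domain exchange factor, had 1.61 and 1.99 in ACKR4-positive cells against -1.02 and -0.89 in ACKR4-negative cells, a log2 fold change of 2.75 ± 0.29 (limma adjusted p = 0.0176). Dennd2a and Dennd4b also rose, by 2.03 and 1.82. Dennd3, which acts on Rab12, had -6.77 and -7.11 in ACKR4-positive cells against -1.92 and -2.83 in ACKR4-negative cells, 9.82-fold lower when floored. Of the Rab5 exchange factors, Rin3 was 3.61-fold lower when floored and not well above background in ACKR4-positive cells. Rin2 fell with a log2 fold change of -2.69.

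The rest of the cycle had few calls. Escort and GDP-dissociation genes had 0 of 8 called, GTPase-activating proteins 0 of 32, effectors of endocytic Rabs 0 of 38 and effectors of secretory Rabs 0 of 28. Of all tested genes 5.62% were called, a share that gives few calls in lists this small. With the sort block, which called 15.3% of all tested genes, Chml fell among the escort genes. Among the GTPase-activating proteins Tbc1d4, Tbc1d30 and Tbc1d1 then fell and Sgsm2 rose. Among effectors Rabep1 and Myo5a rose, and Inpp5b, Unc13b and Micall2 fell.

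Of 23 tested Weibel-Palade body genes 8 fell and 0 rose, 34.8% against the 5.62% of all genes, with a median log2 fold change of -0.59. With the sort block 9 fell and 1 rose, 43.5% against 15.3% of all genes. Vwf, the main cargo, had -3.13 and -2.63 in ACKR4-positive cells against 3.33 and 4.14 in ACKR4-negative cells, a log2 fold change of -6.61 ± 0.41 (limma adjusted p = 0.00776). Angpt2 and Plat, stored or released with it, fell by 88.3-fold and 14.2-fold when floored. They were not well above background in ACKR4-positive cells and passed the filter through ACKR4-negative cells only. Edn1 fell with a log2 fold change of -4.63. With the block only, Tek was called higher (1.81) and Ece1 lower (-2.22). Of 27 tested caveolar and clathrin genes 2 rose and 0 fell, 7.41% and thus near the background. These were Dnm1, a dynamin that severs vesicles (4.45 ± 0.35), and Dab2, a clathrin adaptor (2.16 ± 0.34). Over all 191 tested genes of these 7 lists 5 rose and 11 fell, 8.38% against 5.62% of all genes. With the sort block 13 rose and 19 fell, 16.8% against 15.3%.

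**Figure D4:**
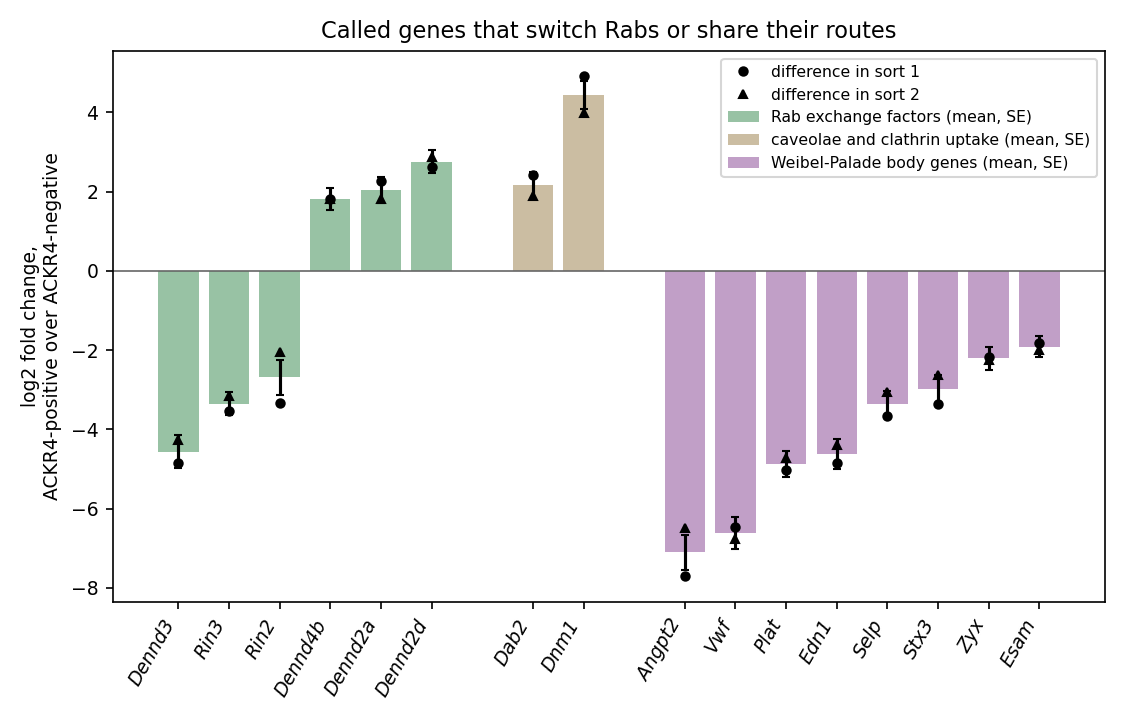
Log2 fold change, ACKR4-positive over ACKR4-negative, of called genes that switch Rabs or share their routes (y axis), with bars for the mean, lines for the standard error, circles for sort 1 and triangles for sort 2. Exchange factors lie on both sides of 0, the caveolar and clathrin genes above it and the 8 Weibel-Palade body genes below it.

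Markers of other cells differed between the groups too. The counts below stand against 3.71% of all tested genes that fell and 1.91% that rose. Through ACKR4-negative cells only, 6 of 12 megakaryocyte and platelet, 5 of 9 arterial and 4 of 9 mural genes passed the filter. So did 3 of 8 capillary and 1 of 5 erythroid genes. Summed signal of 12 megakaryocyte and platelet genes, in units of the 75th percentile, was 1.28 and 2.78 in ACKR4-positive cells against 103 and 236 in ACKR4-negative cells, and 10 of the 12 fell. Itga2b, the defining integrin, was not well above background in ACKR4-positive cells and 143-fold lower when floored. Mural markers summed to 2.98 and 3.34 in ACKR4-positive cells against 60.2 and 102 in ACKR4-negative cells (4 of 9 tested fell). Arterial markers summed to 7.35 and 13.6 in ACKR4-positive cells against 89.7 and 112 in ACKR4-negative cells (7 of 9 fell). Capillary markers summed to 78.1 and 56.8 in ACKR4-positive cells against 454 and 471 in ACKR4-negative cells (6 of 8 fell). Erythroid markers summed to 1.5 and 1.7 in ACKR4-positive cells against 7.2 and 3.3 in ACKR4-negative cells (1 of 5 tested fell). Of the fibroblastic reticular markers 0 of 5 tested were called, and of the granulocyte and mast cell markers 0 of 3. Sinusoidal markers summed to 419 and 576 in ACKR4-positive cells against 182 and 145 in ACKR4-negative cells (2 of 9 rose). That list had a median log2 fold change of -0.03. Without overlap 4 of its genes were higher and 3 lower, against 23.3% and 21.6% of all tested genes. The higher genes were led by the called Clec4g (5.05) and Wnt2. Wnt2, 6.71-fold higher when floored, passed the filter through ACKR4-positive cells only. The 3 lower genes were Oit3 (-1.56, called lower with the block), Mrc1 (-1.03) and Fcgr2b (-0.72). The part of these cells in the lower signal of Rab27b, Rab3b, Rab39 and the Weibel-Palade body genes was not tested. In such bulk samples fewer cells of a type and less RNA per cell cannot be told apart.

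**Figure D5:**
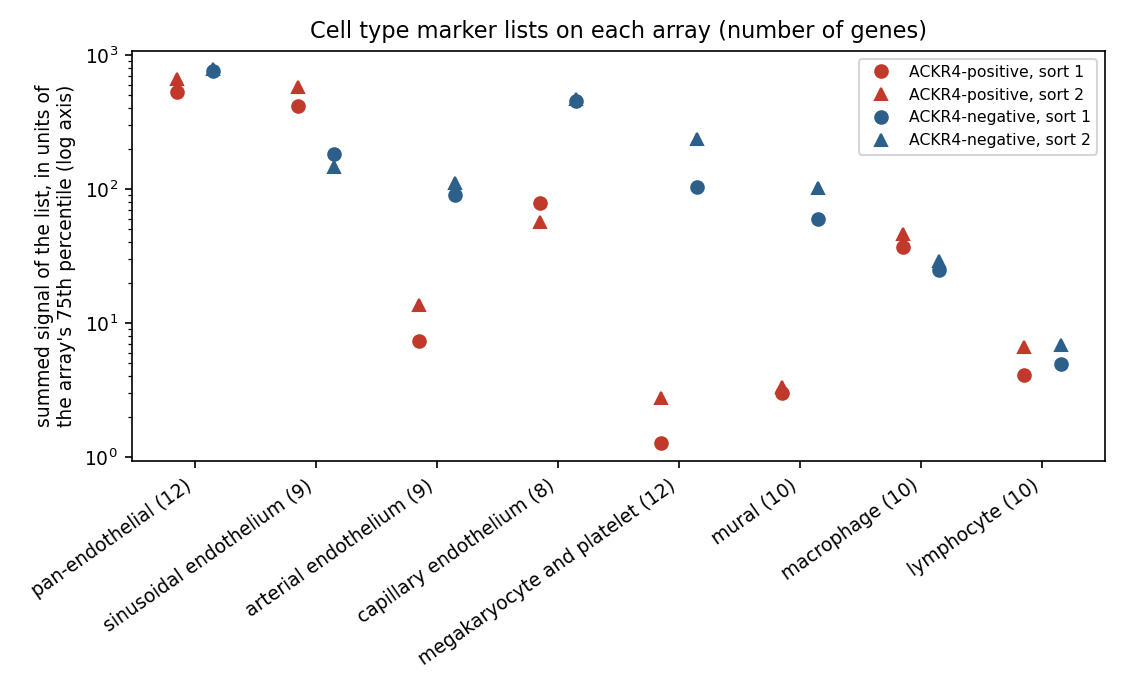
Summed signal of selected cell type marker lists on each array, in units of the array's 75th percentile (y axis, log scale). Red marks ACKR4-positive and blue ACKR4-negative cells, circles sort 1 and triangles sort 2. Erythroid, fibroblastic reticular, and granulocyte and mast cell lists are not drawn. Megakaryocyte and platelet, mural, arterial and capillary sums lie lower in ACKR4-positive cells and the sinusoidal sum higher, although that list holds genes that differ in either direction.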

How the data were processed

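RNA was labelled for 1-colour Agilent arrays. Spot intensity values came from the authors' run of Agilent Feature Extraction 10.7.3.1 (the submitters' processing notes), and the deposited processed intensity is background-subtracted, per the file headers. Flagged spots (1.91% to 1.96%) were left out, the others were averaged per probe as log2 of the deposited signal, and the 75th percentile was subtracted. All 4 arrays shared 1 slide and 1 scan. Tests took probes with more than 50% of spots flagged as well above background in 2 arrays of either group, and the brightest probe stood for the gene. Groups were compared by limma 3.58.1 in R 4.3.3 (threshold 0.05 after Benjamini-Hochberg adjustment across 17362 genes), also in a fit that adds the sort as a block. Arrays of equal replicate number share a mouse number in the labels, which was read as the sort, and their deviations from the group means correlated at 0.605 over all genes. Only the fit without the block was tried on simulated data. The simulated arrays had independent noise, so this trial leaves out that correlation and does not bear on the block fit. Figures used Python 3.11.15, pandas 2.3.3 and matplotlib 3.10.9. Probe coordinates are those of the files (mm9).

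Members and gene lists were chosen with earlier results of these data known. Named are Rab genes called in either fit, the 6 largest other differences of 1 sign in both sorts, the 6 highest levels, those whose probes differ in sign, and up to 4 called genes per other list. Paralogs, genes that complete a small count, genes called only with the block, the remaining genes drawn among called genes and the markers were added after their values were seen. Alternatives covered background correction, scaling, filters, the deposited table, probe averaging, flagged spots, the prior, the block and leaving out each array. Leaving out an array leaves 1 array in its group, so only the other group then supplies a spread.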

Additional observations from a re-analysis of the deposited data

How the results depend on the processing

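Precision was limited by 2 arrays per group, where the interval of Rab10 still spanned -0.64 to 0.74. Of the settings that keep all 4 arrays, the stricter filter left 45 Rab genes, of which 1 fell, since Rab39 and Rab27b were then not tested. That filter gave 165 rises and 276 falls among all genes and 3 rises and 6 falls among the other genes of the Rab pathway, which had 2 rises with no filter. The replicate block gave 5 rises and 7 falls among Rab genes, 1172 and 1484 among all genes, and 13 and 19 in the pathway. Leaving out 1 array at a time gave 0 rises and 2 to 3 falls among Rab genes, 75 to 295 rises and 312 to 597 falls among all genes, and 1 to 4 rises and 5 to 9 falls in the pathway. The median of endocytic Rabs was 0.078 with normexp, 0.13 with quantile normalization, 0.18 with median centring, 0.13 with the deposited values, 0.034 with the mean of probes and 0.045 to 0.21 with 1 array left out. That of secretory Rabs was 0.088 with median centring and -0.23 to 0.14 with 1 array left out.

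Directions turned only for uncalled genes. With the mean of probes Rab10 was at -0.26, Rab30 at 0.46, Rab43 at -0.31 and Rab5b at -0.026. Rab30 was at 1.04 with normexp, and Rab12 at 0.012 with quantile normalization and 0.038 with median centring. With 1 array left out, values ran from -0.21 to 0.15 for Rab12, -0.072 to 0.28 for Rab1a, -0.70 to 0.32 for Rab30 and -0.046 to 0.72 for Rab33b. They ran from -0.19 to 0.25 for Rab43, -0.44 to 0.66 for Rab5b, -0.14 to 0.21 for Rab5c and -1.08 to 2.58 for Rab6b. The causes were not tested.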

Other observations

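Some Rab probes followed the sort in both groups. Rab3c, a Rab of regulated secretion, had 0.94 and 3.15 in ACKR4-positive cells of sorts 1 and 2, against 1.18 and 3.13 in ACKR4-negative cells. It was thus higher in sort 2 by 2.21 and 1.95 on the log2 scale. Rab32 was higher in sort 2 by 1.29 in ACKR4-positive and 1.02 in ACKR4-negative cells. Both bright Rab3c probes share a stretch of 30 bases, printed with the letters searched for in capitals, and another Rab3c probe was well above background on 0 arrays.
Rab3c probe stretch: gagttctaggatagcaaaGGCTACACAGgg
Of 18 probes on the arrays that hold these capital letters, 14 were well above background on all 4 arrays. Their median difference, sort 2 minus sort 1, was 1.18 in ACKR4-positive and 0.776 in ACKR4-negative cells, and 12 of them, 85.7%, were higher in sort 2 in both groups. Over 19911 such probes of any sequence the medians were 0.15 and 0.099, and 46% were higher in sort 2 in both. Of 7 probes with the reverse complement, 6 were that bright, with medians of -0.703 and -0.461, and 0 were higher in sort 2 in both. The letters were chosen after the values were seen, and the 14 include both bright Rab3c probes, already known to be higher in sort 2. What sets the signal of these probes was not tested.

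Single arrays stood apart for 2 other probes. The dimmer Rab30 probe had 0.20 and -3.57 in ACKR4-positive cells, against -2.76 and -2.84 in ACKR4-negative cells. A Rab38 probe, of a Rab of lysosome-related organelles, had -2.40 and -6.23 in ACKR4-positive cells, against -5.80 and -5.35 in ACKR4-negative cells.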
